A study of Mus musculus with 8 samples.

Results

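Glucocorticoid receptor (GR) binding was described around 5 genes of hepatic cholesterol synthesis and its control in mouse liver: Hmgcs1, Sqle, Insig1, Insig2 and Srebf2. Peaks of 6 GR ChIP-seq libraries were merged into 51431 sites, and those centred within 50 kb of the start of each gene were taken. This gave 46 sites, of which 9 lay around Hmgcs1, 6 around Sqle, 11 around Insig1, 10 around Insig2 and 10 around Srebf2. Of the 8394 FOXO1 peaks of calorically restricted liver, 14 lay in the same windows. None of the 5 genes encodes an uptake protein, and the uptake genes measured are given with the other genes of the pathway. All livers came from male adult C57BL/6J mice on chow and were collected at ZT12, the start of the dark phase. Controls (ctrl.) were fed only at night during the last week, calorically restricted mice (cal. res.) had their ration lowered stepwise and were fed at ZT12, and CORT mice were fed at night and injected daily with corticosterone for a week. By the study's methods, restriction ran for longer than the week of injections, and CORT mice were first adapted to handling. Age and handling can thus differ between cal. res. and CORT. The study describes the cal. res. livers of the ChIP as wildtype. The sources used here do not say whether the ctrl. livers of the ChIP came from vehicle-injected mice. Each group had 2 GR libraries, and the FOXO1 list was made by the authors from 2 merged cal. res. libraries and has no replicate spread.

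Cholesterol is built from acetyl-CoA in the endoplasmic reticulum and cytosol. HMGCS1 makes HMG-CoA early in the mevalonate pathway, and SQLE, squalene epoxidase, carries out the first oxygen-dependent step of the sterol branch. Srebf2 encodes SREBP2, a membrane-bound transcription factor that SCAP escorts to the Golgi for cleavage when sterols are low. INSIG1 and INSIG2 hold the SCAP-SREBP complex in the endoplasmic reticulum when sterols are high. Hmgcs1, Sqle and Insig1 are textbook SREBP2 targets, and SREBP2 also acts on its own gene. Insig2 has a liver transcript whose level falls with insulin. FOXO1 is a forkhead factor that insulin keeps out of the nucleus, and GR is the nuclear receptor that corticosterone activates.

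The sequences under the GR peaks at the starts of these genes are shown first, because GR peaks of all 6 libraries lay at 4 of these starts and of 5 libraries at the start of Insig2. For 4 of the 5 genes the RefSeq promoter table (GRCm38.p6) has an entry. Insig2 has several, of which only the one at the gene start is printed. The others (chr1:121328025-121328274 and chr1:121327679-121327928) lie in its GR site 4.69 kb downstream and hold none of the motifs searched for here. Each stretch lies upstream of the annotated transcript start, is written 5′ to 3′ on the gene's strand, and has in capitals every match, on either strand, to the motifs TCACNCCAC (a sterol response element), TCACCCCA (its short form, added after the Srebf2 promoter was read), CCAAT and CACGTG (an E-box). The stretches are Hmgcs1 (chr13:119690101-119690350, plus strand), Insig1 (chr5:28071162-28071362, plus strand), Srebf2 (chr15:82147019-82147180, plus strand) and Insig2 (chr1:121332590-121332839, minus strand). Sqle was not matched in that table, and 121 bases of its start site (chr15:59314824-59314944, plus strand, GRCm38) are printed instead, with a CCAAT box on the opposite strand in capitals.
Hmgcs1 promoter: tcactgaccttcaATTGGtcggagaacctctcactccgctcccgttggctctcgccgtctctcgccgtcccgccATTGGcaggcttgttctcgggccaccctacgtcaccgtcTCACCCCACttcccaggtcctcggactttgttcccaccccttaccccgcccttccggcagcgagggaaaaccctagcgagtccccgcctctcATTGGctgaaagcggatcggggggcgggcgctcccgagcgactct
Insig1 promoter: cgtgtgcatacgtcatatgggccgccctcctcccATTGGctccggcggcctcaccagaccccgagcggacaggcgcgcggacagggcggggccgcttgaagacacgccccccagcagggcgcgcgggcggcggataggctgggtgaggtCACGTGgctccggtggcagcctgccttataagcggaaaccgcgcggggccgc
Srebf2 promoter: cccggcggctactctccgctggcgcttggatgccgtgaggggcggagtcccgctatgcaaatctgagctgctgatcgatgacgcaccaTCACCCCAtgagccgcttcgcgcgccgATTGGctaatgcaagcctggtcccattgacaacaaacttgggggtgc
Insig2 promoter: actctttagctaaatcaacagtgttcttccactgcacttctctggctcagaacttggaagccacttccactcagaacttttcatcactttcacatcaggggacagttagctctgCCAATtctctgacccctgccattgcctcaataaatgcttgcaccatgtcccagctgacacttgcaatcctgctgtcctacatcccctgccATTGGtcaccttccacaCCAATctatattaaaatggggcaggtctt
Sqle start site: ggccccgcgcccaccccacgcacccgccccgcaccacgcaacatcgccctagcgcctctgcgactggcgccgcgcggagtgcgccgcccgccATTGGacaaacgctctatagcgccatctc

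The sterol element of Hmgcs1 spanned 137 to 129 bp upstream of the RefSeq start and lay 4 to 30 bp from the GR summits of all 6 libraries. The short element of Srebf2 spanned 162 to 155 bp upstream of its RefSeq start and lay 28 to 50 bp from the 3 summits that fell in the stretch. Its CCAAT box lay 3 to 75 bp from the same summits. Insig1 carried a CCAAT box 216 to 212 bp and an E-box 101 to 96 bp upstream of its RefSeq start, and 2 of its GR summits fell in the stretch. The printed Insig2 stretch carried 3 CCAAT boxes, the nearest of which to its 5 summits lay 3 to 27 bp away. The GR hexamer AGAACA is not in capitals above. A match spanned 165 to 160 bp upstream at Hmgcs1, 10 to 59 bp from its 6 summits. Another spanned 229 to 224 bp upstream at Insig2, 90 to 120 bp from its 5 summits. In 200 bp around the best summit, TCACNCCAC was found at 1 of the 46 sites and at 0.795% of all sites, TCACCCCA at 3 and at 1.2%, and CCAAT at 20 and at 26.4%. Of the 3 matches to TCACCCCA, that at the Srebf2 start prompted the motif and that at the Hmgcs1 start lies within its TCACNCCAC. Only the match at the Insig1 site 24.3 kb upstream is separate, so the count cannot be set against the share of all sites. Of the 32851 promoters of the table, 1.24% held TCACNCCAC, 1.56% held TCACCCCA and 37.4% held CCAAT. The full GR element (AGAACA and TGTTCT spaced by 3 bases) matched none of the 46 sites and 0.0642% of all sites, its hexamer AGAACA matched 9 and 18.4%, the forkhead motif TGTTTAC matched 2 and 5.19%, and CACGTG matched 2 and 4.72%. A match describes the letters of the window and does not show that a factor was bound there.

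At Insig1 and Srebf2 the strongest peak lay away from the start, and 121 bases of each are shown, together with those of the Insig2 site at which the 3 groups stood apart. Capitals mark the span between the lowest and the highest of the 6 GR summits, 27 bases at Insig1, 52 at Insig2 and 57 at Srebf2. The stretches are from GRCm38 and lie at chr5:28055557-28055677 on the plus strand, chr1:121329564-121329684 on the minus strand and chr15:82183715-82183835 on the plus strand.
Insig1 site 16.1 kb upstream: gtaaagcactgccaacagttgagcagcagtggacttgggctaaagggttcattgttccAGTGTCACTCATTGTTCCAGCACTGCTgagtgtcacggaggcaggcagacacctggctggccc
Insig2 site 2.97 kb downstream: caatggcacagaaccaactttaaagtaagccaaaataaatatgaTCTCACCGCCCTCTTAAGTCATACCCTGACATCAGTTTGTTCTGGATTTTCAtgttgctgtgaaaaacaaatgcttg
Srebf2 site 37.0 kb downstream: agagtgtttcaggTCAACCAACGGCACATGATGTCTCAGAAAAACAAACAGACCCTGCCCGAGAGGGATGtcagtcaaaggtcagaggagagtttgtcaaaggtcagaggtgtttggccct

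The 6 GR lists differed in length, from 13667 peaks in ctrl. replicate 2 to 48060 in CORT replicate 2, a ratio of 3.52, and the read depth behind them was not analysed here. The number of peaks thus limits what can be seen in ctrl. replicate 2. The library names follow 2 styles: ctrl. replicate 2 and both cal. res. libraries share one, and ctrl. replicate 1 and both CORT libraries share the other. The labels do not say what the styles stand for. Cal. res. and CORT differ in style throughout, so style and group can be set apart only through the 2 ctrl. libraries, and a within-style comparison against ctrl. rests on 1 ctrl. library. In the check of tissue, 6 of 6 hepatocyte genes had a GR peak within 10 kb of the start in all 6 lists, and 0 of 6 genes of other tissues had one in any list. Fold enrichment is the deposited ratio of fragments over the summit to the local background. It was compared between libraries as a percentile within its own list, with 0 for a site without a peak. Fragments over the summit were rebuilt from the deposited fold and p-value, and the 95% intervals on them cover counting error only. These counts are not scaled for read depth. Overlap of intervals between libraries therefore shows how few fragments lie behind a value and does not test a difference in percentile. A bulk liver library does not separate fewer cells with bound GR from less GR bound per cell.

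**Figure D1:**
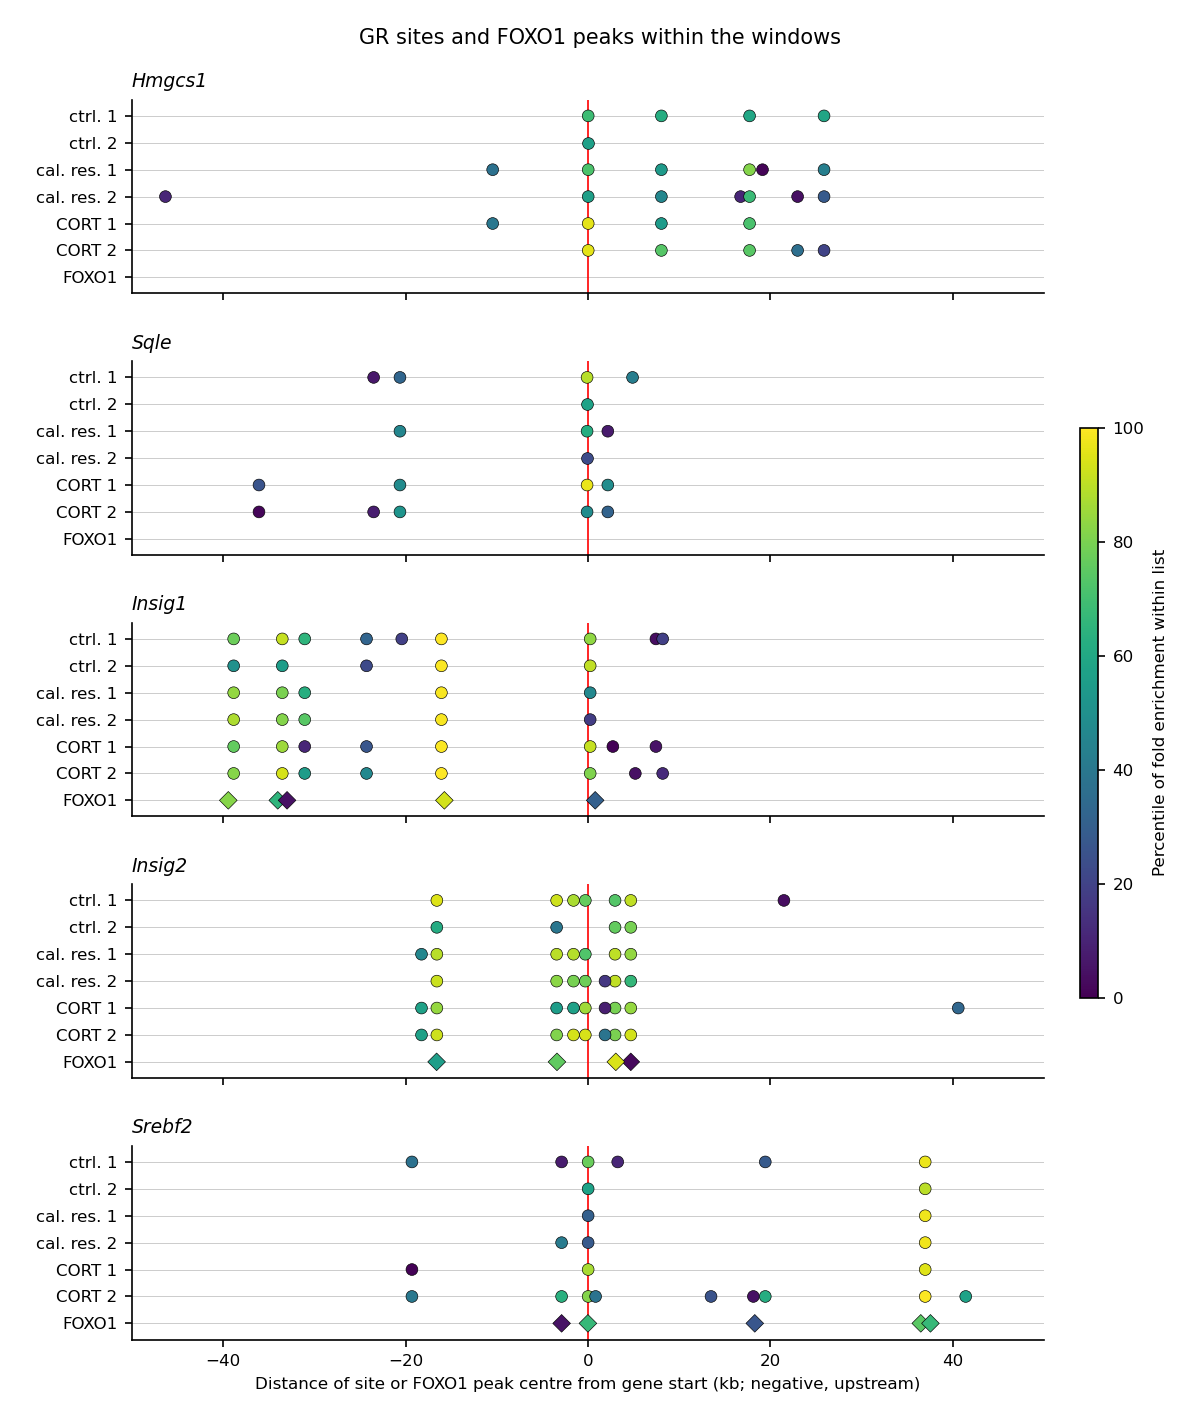
Distance of GR sites (circles, 1 row per library) and FOXO1 peaks (diamonds) from the start of each gene in kb, coloured by the percentile of fold enrichment within the list. Of the 46 sites, 12 have a circle in all 6 rows, and the FOXO1 row is empty for Hmgcs1 and Sqle and holds 5, 4 and 5 diamonds for Insig1, Insig2 and Srebf2.

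Of the 46 sites, 12 had a peak in all 6 lists (15.7% of all sites did), and 14 had a peak in 1 list. Both ctrl. libraries shared a peak at 13 of the 46 sites (21.4% of all sites), both cal. res. libraries at 18 (27.9%) and both CORT libraries at 24 (43.7%). Every site shared by all 3 groups was one of the 12, and at 21 sites no group had both libraries. The ctrl. libraries had peaks at 30 and 13 of the sites, the cal. res. libraries at 23 each, and the CORT libraries at 28 and 35. Mean numbers of sites were 21.5 ± 12 (SD, n = 2), 23 ± 0 and 31.5 ± 4.95 in the same order. No difference between the 3 groups beyond the spread of the libraries was found. The exact permutation test on the between-group sum of squares gave p = 0.533, where no p below 0.0667 can be reached. Single genes gave exact permutation p between 0.133 for Hmgcs1 and 0.6 for Insig1 and Srebf2. Among 21951 protein-coding genes, of which the median had 3 sites in its window, 14.4% had more GR sites than Hmgcs1, 26.1% more than Sqle, 9.57% more than Insig1, and 11.8% more than Insig2 or Srebf2. At the edge of the windows, the outermost site inside was a cal. res. replicate 2 peak 46.3 kb upstream of Hmgcs1 at percentile 10.9, and the nearest site outside was a ctrl. replicate 1 peak 51.8 kb downstream of Insig1 at percentile 19.1.

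Hmgcs1, the first of the enzyme genes (ENSMUSG00000093930.2, chr13:119690379-119708260, plus strand), had 1 site in every list, at its start (chr13:119689983-119690820, 22 bp downstream), which covers the promoter stretch shown above. The percentile was 68.5 and 56.5 for ctrl., 71.5 and 56.2 for cal. res., and 95.8 and 95.9 for CORT. Both CORT libraries stood above the other 4, while ctrl. and cal. res. overlapped. The deposited fold enrichment was 7.64 and 4.81 for ctrl., 8.06 and 5.40 for cal. res., and 23.7 and 23.5 for CORT, values that compare only within a list. The summits rested on 27 and 27, 26 and 18, and 47 and 76 fragments in the same order. The group means were 62.5 ± 8.46 (SD, n = 2), 63.9 ± 10.8 and 95.9 ± 0.058.

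Downstream of the start, Hmgcs1 had 3 further sites in at least 4 lists, none of them in ctrl. replicate 2. At an intronic site 8.05 kb downstream (chr13:119697889-119698961), where an exon of the antisense transcript Gm48342 also lies, the percentile was 61.7 and 0 for ctrl., 54.1 and 46.4 for cal. res., and 54.6 and 73.6 for CORT. At a site over the 3′ UTR 17.7 kb downstream (chr13:119707821-119708372) it was 59.5 and 0, 81.3 and 67.9, and 71.2 and 74.1, so that all 4 cal. res. and CORT libraries lay above both ctrl. libraries. In both cal. res. libraries this site also stood above the start site. The third, in an intron of the neighbouring gene Nim1k 25.9 kb downstream (chr13:119716025-119716497), was the one site of Hmgcs1 that was higher in both cal. res. libraries than in both CORT libraries, with 43.0 and 28 against 0 and 20.2 and with 58.7 and 0 in ctrl. The remaining 5 Hmgcs1 sites had peaks in 1 or 2 lists at percentiles from 0.817 to 39.6. The ctrl. libraries had 4 and 1 Hmgcs1 sites, the cal. res. libraries 6 and 7, and the CORT libraries 4 and 5 (exact permutation p = 0.333 for cal. res. against ctrl., the smallest that 2 against 2 allows).

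Sqle (ENSMUSG00000022351.14, chr15:59315077-59331192, plus strand) had 1 site in every list, at its start (chr15:59314510-59315444, 100 bp upstream). The percentile was 89.2 and 57.5 for ctrl., 61.9 and 22.9 for cal. res., and 96.6 and 48.3 for CORT, and the 3 groups overlapped. The libraries of each group stood far apart. The summits held 29 and 14 fragments for ctrl., 21 and 13 for cal. res., and 48 and 14 for CORT, and the summits of cal. res. replicate 2 and CORT replicate 2 fell outside the printed stretch.

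The other Sqle sites reached at most percentile 51.8. Both CORT libraries and no ctrl. library had a peak 36.1 kb upstream in an intron of the lincRNA Gm36617 (chr15:59278712-59279291), at percentiles 25.8 and 1.18, and cal. res. had none there. Both CORT libraries and no ctrl. library also had a peak 2.17 kb downstream in a Sqle intron (chr15:59316769-59317734), where CORT stood at 48.5 and 31.3 and cal. res. at 7.19 and 0. At an intergenic site 20.6 kb upstream (chr15:59293922-59294997) the percentile was 32.7 and 0 for ctrl., 46.0 and 0 for cal. res., and 47.7 and 51.8 for CORT. Per library, Sqle had 4 and 1 sites for ctrl., 3 and 1 for cal. res., and 4 and 5 for CORT (exact permutation p = 0.467). The remaining 2 sites reached at most percentile 42.5.

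**Figure D2:**
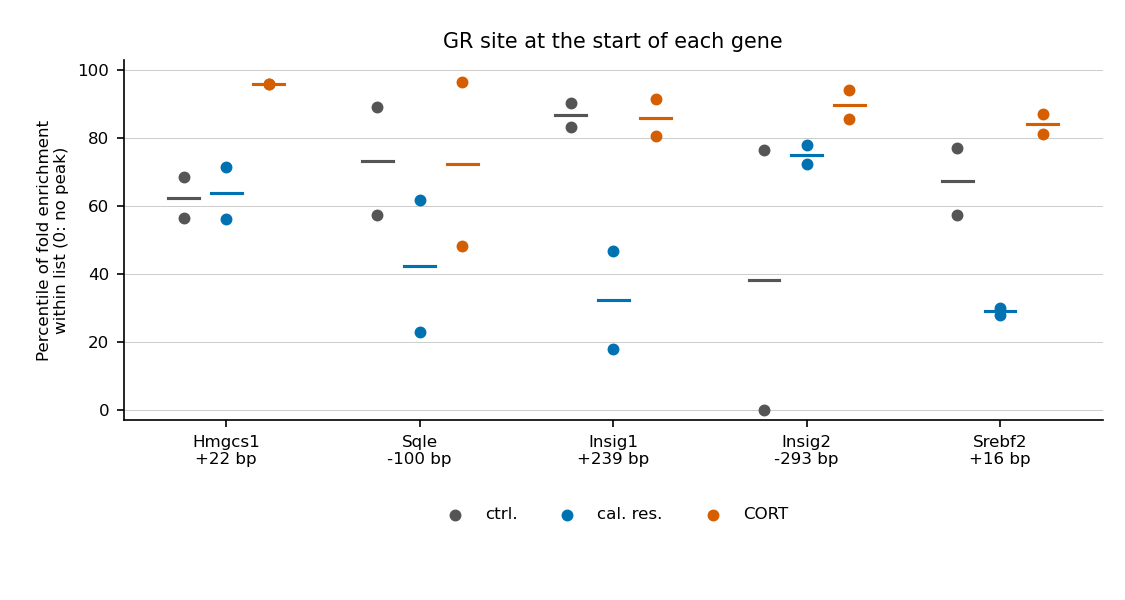
Percentile of GR fold enrichment within the list (vertical axis; 0, no peak) at the start site of each gene, with 1 point per library and bars at the group means. CORT points lie above all other points at Hmgcs1, Insig2 and Srebf2, and cal. res. points lie below all others at Insig1 and Srebf2.

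Insig1 (ENSMUSG00000045294.11, chr5:28071363-28078662, plus strand), the SREBP-induced member of the retention pair, had the strongest GR peak of all 46 sites. It lay 16.1 kb upstream in an intron of the lincRNA Gm26608 (chr5:28054249-28056329), and its percentile was 99.6 and 99.3 for ctrl., 99.1 and 99.0 for cal. res., and 99.5 and 99.8 for CORT. Between 78 and 243 fragments covered the summit, and fold enrichment ran from 23.4 in ctrl. replicate 2 to 82.5 in CORT replicate 2. Both cal. res. libraries were below the other 4, with a mean difference from ctrl. of -0.419 percentile points, and the 6 summits fell within the 27 capital bases shown above.

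The Insig1 start site (chr5:28070302-28072902, 239 bp downstream, 2601 bp wide) had percentiles of 83.2 and 90.3 for ctrl., 46.9 and 18.0 for cal. res., and 91.4 and 80.6 for CORT. Both cal. res. libraries lay below the other 4, and ctrl. and CORT overlapped. On average ctrl. stood at 86.8 ± 4.99 (SD, n = 2), cal. res. at 32.4 ± 20.4 and CORT at 86.0 ± 7.64. The summits held 31 and 28 fragments for ctrl., 18 and 13 for cal. res., and 37 and 32 for CORT, and the 95% counting intervals of ctrl. replicate 1 (21.1 to 44.0) and cal. res. replicate 1 (10.7 to 28.4) overlapped. The site joins several summits, and the highest of CORT replicate 2 lay in the first part of the gene, while those of the other 5 libraries lay just upstream of the start.

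Of the other Insig1 sites, 2 more had a peak in all 6 lists, both in introns of Gm26608. At the site 38.9 kb upstream (chr5:28031440-28033584) the percentile was 77.6 and 50.2 for ctrl., 83.8 and 87.6 for cal. res., and 76.0 and 81.8 for CORT, and both cal. res. libraries lay above the other 4. At the site 33.5 kb upstream (chr5:28036949-28038734) it was 91.2 and 55.4, 80.0 and 81.4, and 85.4 and 93.4. A site 31.1 kb upstream (chr5:28039583-28041023) without a peak in ctrl. replicate 2 stood at 65.1 in the other ctrl. library, at 62.6 and 74.0 under cal. res. and at 10.6 and 54.7 under CORT. At 24.3 kb upstream (chr5:28046778-28047379) both ctrl. libraries (32.4 and 22.3) and both CORT libraries (26.8 and 46.6) had a peak and neither cal. res. library did. The remaining 5 sites had peaks in 1 or 2 lists at percentiles of at most 19.1, and none of them had a peak in cal. res.

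Insig2 (ENSMUSG00000003721.14, chr1:121304353-121332589, minus strand) had 4 sites in all 6 lists. Of its 10 sites, both libraries shared a peak at 4 in ctrl., 6 in cal. res. and 8 in CORT. Of all sites, 21.4%, 27.9% and 43.7% were shared in this way, in the same order. The site 2.97 kb downstream of its start, in an intron that the unclassified transcript Gm37174 overlaps (chr1:121329280-121329965), had no overlap between the 3 groups in percentiles of the full lists. The percentile was 73.2 and 75.8 in ctrl., 79.4 and 79.8 in CORT, and 89.9 and 90.5 in cal. res. The means were 74.5 ± 1.82 (SD, n = 2), 79.6 ± 0.272 and 90.2 ± 0.449, with ctrl. lowest and cal. res. highest. This order depended on the scale and the fit, since CORT minus ctrl. was -7.20 in ranks among the sites in all 6 lists, and cal. res. minus CORT was -2.70 with name style as a covariate. The summits held 23 and 23 fragments in ctrl., 21 and 30 in CORT, and 44 and 39 in cal. res.

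Nearer the start, ctrl. replicate 2 had no peak at 2 Insig2 sites that the other 5 libraries held. The start site (chr1:121332291-121333473, 293 bp upstream) stood at 76.4 and 0 for ctrl., 72.3 and 77.9 for cal. res., and 85.6 and 94.1 for CORT. The site 1.59 kb upstream (chr1:121333894-121334467) stood at 87.4 and 0, 88.8 and 79.5, and 56.8 and 93.4. CORT was highest at the first, and the groups overlapped at the second.

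The other Insig2 sites in all 6 lists lay on both sides of these. The one 4.69 kb downstream (chr1:121327457-121328336) holds the starts of 8 annotated Insig2 transcripts and had percentiles of 90.5 and 79.6 for ctrl., 83.9 and 66.4 for cal. res., and 84.2 and 93.2 for CORT. The one 3.44 kb upstream (chr1:121335527-121336528) had 92.5 and 39.4, 89.5 and 82.6, and 55.3 and 81.2, with both cal. res. libraries above both CORT libraries. The one 16.6 kb upstream (chr1:121348715-121349607) had 94.6 and 61.1, 89.1 and 92.2, and 84.4 and 92.2. In these 3 sites ctrl. replicate 1 lay above ctrl. replicate 2 each time.

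Both CORT libraries and no ctrl. library had a peak at 2 weaker Insig2 sites. At 18.3 kb upstream (chr1:121350603-121351086) CORT stood at 57.3 and 57.0 and cal. res. at 46.3 and 0, and at 1.87 kb downstream (chr1:121330532-121330909) CORT stood at 8.44 and 38.6 and cal. res. at 0 and 16.3. Per library Insig2 had 7 and 4 sites for ctrl., 7 and 7 for cal. res., and 9 and 8 for CORT (exact permutation p = 0.2). The remaining 2 sites had 1 peak each, at percentiles 33.0 and 3.84.

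Srebf2, the transcription factor gene (ENSMUSG00000022463.8, chr15:82147181-82205379, plus strand), had 2 sites in all 6 lists, and the groups were ordered differently at each. At the start site (chr15:82146628-82147766, 16 bp downstream) the percentile was 77.0 and 57.5 for ctrl., 30.1 and 28 for cal. res., and 87.0 and 81.3 for CORT. All 3 groups were apart, with cal. res. lowest and CORT highest. The means were 67.2 ± 13.8 (SD, n = 2), 29.0 ± 1.46 and 84.2 ± 3.97. These peaks were shallow, with 20 and 14 fragments for ctrl., 12 and 11 for cal. res., and 26 and 31 for CORT, and the counting intervals of ctrl. replicate 2 (7.65 to 23.5) and cal. res. replicate 1 (6.20 to 21.0) overlapped.

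In a Srebf2 intron 37.0 kb downstream (chr15:82182865-82185443) the percentile was 96.9 and 89.7 for ctrl., 97.5 and 98.0 for cal. res., and 95 and 99.4 for CORT. Both cal. res. libraries lay above both ctrl. libraries, and CORT overlapped both groups. The summits held 65 and 35, 89 and 91, and 44 and 183 fragments in the same order. Of the other 8 Srebf2 sites, the one 19.3 kb upstream lay at the start of the neighbouring gene Ccdc134 (chr15:82127555-82128195) and stood at 37.2 and 0 for ctrl., 0 and 0 for cal. res., and 0.395 and 40.02 for CORT. Of them, 5 were in 1 list, and Srebf2 sites per library ranged from 2 to 9, the 9 being in CORT replicate 2 (exact permutation p = 0.6).

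**Figure D3:**
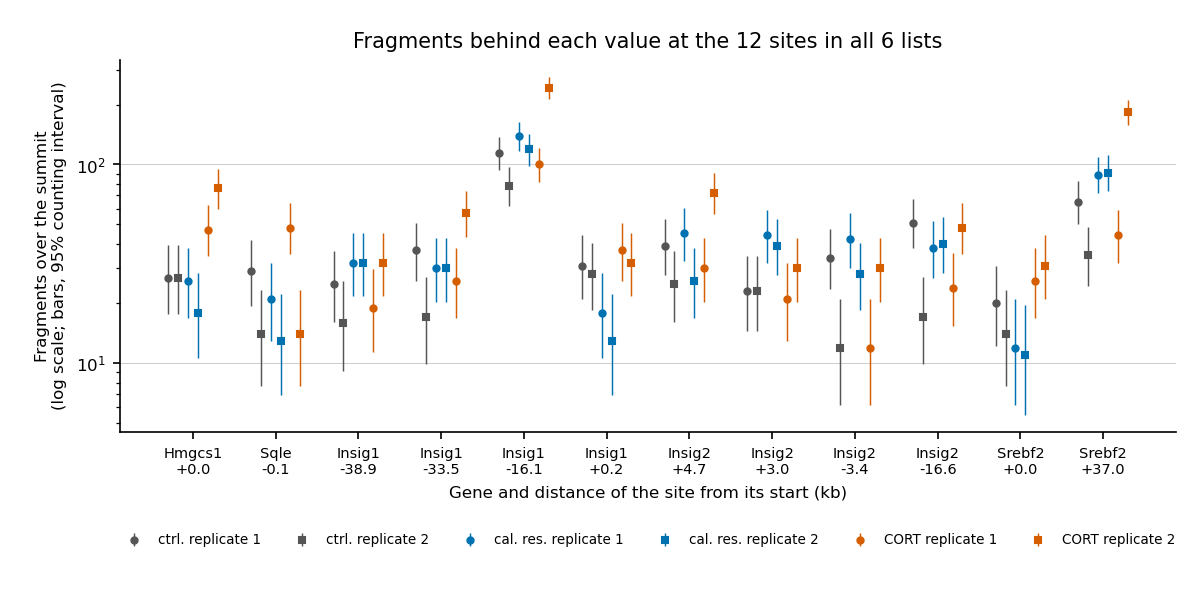
Fragments over the GR summit (vertical axis, log scale) in each library at the 12 sites with a peak in all 6 lists, ordered by gene and distance from the start in kb, with 95% counting intervals. The counts run from 11 fragments in cal. res. replicate 2 at the Srebf2 start to 243 in CORT replicate 2 at the Insig1 site 16.1 kb upstream.

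Across the 46 sites, cal. res. was compared with ctrl. by asking at which sites both libraries of a group stood above both of the other. Both cal. res. libraries were higher at 4 sites (4.65% of all sites were), namely Hmgcs1 17.7 kb downstream, Insig1 38.9 kb upstream, Insig2 2.97 kb downstream and Srebf2 37.0 kb downstream. They were lower at 4 sites (6.86% of all sites), the starts of Insig1 and Srebf2 and the Insig1 sites 16.1 and 24.3 kb upstream. A peak in both cal. res. libraries and neither ctrl. library was found at 0 of the 46 sites (0.842% of all sites), and the reverse at 1 (1.75%), the Insig1 site 24.3 kb upstream. Of the 4 start sites in all 6 lists, 2 were lower in cal. res. against 38.4% of all such sites and 0 higher against 4.89%, and of the 8 distal sites in all 6 lists, 3 were higher against 14.4% and 1 was lower against 13.0%. Distal here means not centred within 1 kb of a protein-coding gene start. The 8 thus include the Insig2 site 4.69 kb downstream, which holds 8 annotated Insig2 transcript starts. The median difference, cal. res. minus ctrl., was -34.6 percentile points over the 4 start sites and -11.9 over all 2433 start sites in all 6 lists, and 10.1 over the 8 distal sites and 2.08 over all 5664 such sites.

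The calls against ctrl. turned on which ctrl. library was used. With ctrl. replicate 2 alone, which shares the name style of cal. res., cal. res. was higher at 12 of 42 sites (23.3% of all sites) and lower at 4 (9.52%). With ctrl. replicate 1 alone, it was higher at 4 (5.2%) and lower at 20 (55.4%).

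The comparison of CORT with ctrl. used the same ctrl. libraries. Both CORT libraries were higher at 10 sites (16.1% of all sites) and lower at 0 (1.82%). The 10 were the starts of Hmgcs1, Insig2 and Srebf2, the Hmgcs1 site 17.7 kb downstream, the 3 Sqle sites at 36.1 and 20.6 kb upstream and 2.17 kb downstream, and the 3 Insig2 sites at 18.3 kb upstream and 1.87 and 2.97 kb downstream. No Insig1 site was among them. At 4 sites both CORT libraries and no ctrl. library had a peak (4.28% of all sites), 2 of Sqle and 2 of Insig2, and the reverse was found at 0 sites (0.284%). Of the 4 start sites in all 6 lists, 2 were higher in CORT, against 39.8% of all such sites, and 0 were lower (4.07%). Of the 8 distal ones, 1 was higher (21.0%) and 0 were lower (5.69%). The median difference, CORT minus ctrl., was 8.07 percentile points over the 4 start sites and 12.3 over all such start sites. It was 4.46 over the 8 distal sites and 6.27 over all such distal sites. With ctrl. replicate 1 alone, which shares the name style of CORT, CORT was higher at 10 of 46 sites (17.2% of all sites) and lower at 9 (35.4%), and with ctrl. replicate 2 alone it was higher at 22 of 42 (42.5%) and lower at 0 (3.43%). The calls also depended on list length. With the 12458 regions of smallest p-value kept per list, CORT was higher than ctrl. at 3 of the 20 sites left and lower at 0. Of all sites, 13.8% were then higher and 10.3% lower.

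Cal. res. against CORT asks how binding differs between restricted feeding and injected ligand. Circulating corticosterone was raised in both groups according to the paper, over controls at ZT12 for cal. res. and over vehicle for CORT. The contrast is thus not one of high against low ligand. Both cal. res. libraries were lower than both CORT libraries at 14 sites (26.2% of all sites), 5 of them at gene starts, those of Hmgcs1, Insig1, Insig2, Srebf2 and Ccdc134, where 51.6% of all start sites were. They were higher at 5 sites (3.25% of all sites), all distal: Hmgcs1 25.9 kb downstream, Insig1 38.9 and 31.1 kb upstream, and Insig2 2.97 kb downstream and 3.44 kb upstream. Among the 4 start sites in all 6 lists, 3 were lower in cal. res. (72.3% of all such sites) and 0 higher (1.89%), and among the 8 distal ones, 3 were higher (12.1% of all such sites) and 3 lower (34.6%). The median difference, cal. res. minus CORT, was -42.8 percentile points over the 4 start sites and -26.0 over all start sites in all 6 lists, and 1.46 over the 8 distal sites and -2.47 over all such sites. CORT had a peak in both libraries and cal. res. in neither at 3 sites (9.72%), and the reverse held at 0 (0.348%). With each list reduced to the 12458 regions of smallest p-value, the length of the shortest list, cal. res. was higher than CORT at 6 of the 20 sites left (18.2% of all sites) and lower at 4 (16.8%), so the excess of sites with lower cal. res. was not seen at equal list length. Name style differed between all libraries compared here.

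**Figure D4:**
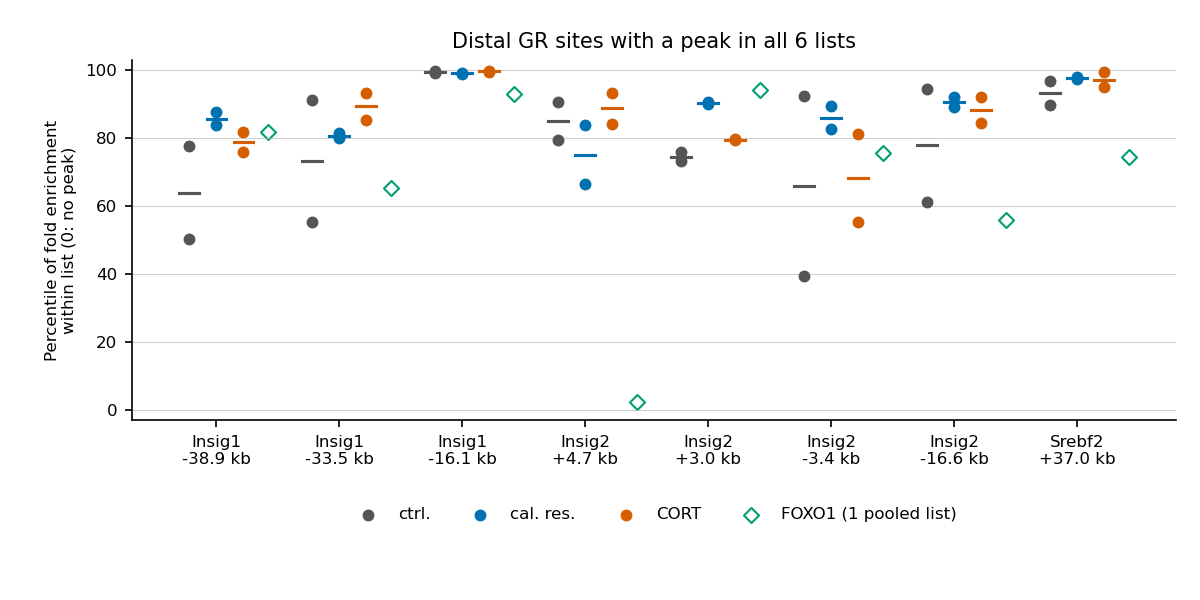
Percentile of fold enrichment within the list (vertical axis) at the 8 distal sites with a GR peak in all 6 lists, with 1 point per GR library, bars at the group means, and an open diamond for the overlapping FOXO1 peak (the stronger where 2 overlapped). The cal. res. points lie above all other GR points at the Insig1 site 38.9 kb upstream and the Insig2 site 2.97 kb downstream, where the FOXO1 diamonds stand at 81.9 and 94.3. They lie below all other GR points at the Insig1 site 16.1 kb upstream, where the diamond stands at 93.1.

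The differences were tested with limma on ranks among the 8097 sites with a peak in all 6 lists, where a difference is in rank percentile points. No site was called at an adjusted p under 0.05 in any of the 3 comparisons (0.0% of 8097), while 929 (11.5%) had an unadjusted p under 0.05 in cal. res. against ctrl., 1078 (13.3%) in CORT against ctrl. and 1391 (17.2%) in cal. res. against CORT. In simulated data with the spread of these libraries the fit called 0% of 100 sites given a log2 change of 1 and 0% of 100 given a log2 change of 2, so an absent call carries little information. At the Hmgcs1 start CORT stood 51.5 ± 10.7 (SE) above ctrl. (limma, adjusted p = 0.207) and cal. res. minus CORT was -45.7 (limma, adjusted p = 0.153), which was the smallest adjusted p of the 12 sites. At the Insig1 start cal. res. minus ctrl. was -51.3 ± 19.6 (limma, adjusted p = 0.434). The Insig1 site 38.9 kb upstream gave 33.0 ± 7.30 (limma, adjusted p = 0.274) and the Insig2 site 2.97 kb downstream 31.5 ± 15.1 (limma, adjusted p = 0.51) for the same difference. The latter was 10.8 without ctrl. replicate 1, 47.3 without ctrl. replicate 2 and 10.8 with name style as a covariate. At the Insig2 site the CORT minus ctrl. difference was 5.07 in percentiles of the full lists but -7.20 ± 15.1 in ranks among shared sites (limma, adjusted p = 0.895), so its direction depends on the scale. At the Srebf2 start cal. res. minus ctrl. was -27.5 ± 11.1 (limma, adjusted p = 0.457) and cal. res. minus CORT was -37.4 (limma, adjusted p = 0.209).

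All 14 FOXO1 peaks in the windows overlapped a GR site, as did 93.4% of all 8394 FOXO1 peaks, and together they touched 12 of the 46 (26.1%), against 13.9% of all sites. Insig1 had 5 FOXO1 peaks, Insig2 had 4, Srebf2 had 5, and Hmgcs1 and Sqle had none, the nearest to them lying 110.8 and 165.7 kb from the start. Of 21951 protein-coding genes, 66.7% had no FOXO1 peak in such a window, 2.37% had more than Insig2 and 1.3% had more than Insig1 or Srebf2. Of the 12 GR sites in all 6 lists 10 overlapped FOXO1, against 50.7% of all such sites, and the exceptions were the starts of Hmgcs1 and Sqle. All 8 distal sites among them overlapped FOXO1, against 58.7% of all distal sites in all 6 lists. These 8 include the Insig2 site 4.69 kb downstream, which holds annotated Insig2 transcript starts. The sites with FOXO1 had a peak in a median of 6 GR lists and the rest in a median of 2, and over all sites the medians were also 6 and 2.

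The strongest FOXO1 peak of the 14 lay in Insig2 3.05 kb downstream of its start, at percentile 94.3 of the FOXO1 list with 60 fragments over the summit, 4 to 33 bp from the 6 GR summits. At this GR site, as at the Insig1 site 38.9 kb upstream, both cal. res. libraries stood above the other 4. They stood below the other 4 at the Insig1 site 16.1 kb upstream and at the starts of Insig1 and Srebf2, which also overlapped FOXO1. The next strongest FOXO1 peak lay 15.8 kb upstream of Insig1, at percentile 93.1 with 54 fragments and 6 to 32 bp from the GR summits of the strongest GR site. The other Insig1 peaks stood at 81.9 (39.4 kb upstream), 65.2 and 4.60 (34.0 and 33.0 kb upstream) and 30.2 (788 bp downstream), the last at the highest summit of CORT replicate 2 rather than at those of the other libraries. At Insig2 the percentiles were 75.7 at 3.40 kb upstream, 55.8 at 16.6 kb upstream and 2.28 at 4.69 kb downstream, all within 68 bp of the GR summits. Srebf2 had FOXO1 peaks at 74.4 and 67.1 in the intronic site (36.5 and 37.5 kb downstream), at 67.1 at the start, at 26.6 at 18.3 kb downstream and at 4.89 at 2.89 kb upstream. The latter 2 overlapped GR sites of 1 list (CORT replicate 2, percentile 4.46) and of 3 lists (ctrl. at 7.45 and 0, cal. res. at 0 and 41.3, CORT at 0 and 63.4). FOXO1 binding in ctrl. or CORT liver was not analysed here.

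Around 28 other genes of the pathway, 226 GR sites were found. Of these, 38 had a peak in all 6 lists (16.8%, against 15.7% of all sites), and 32 overlapped FOXO1 (14.2%, against 13.9%). Both cal. res. libraries stood above both ctrl. libraries at 10 of these sites (4.65% of all sites) and below at 29 (6.86%). Both CORT libraries stood above ctrl. at 48 (16.1%) and below at 8 (1.82%), and cal. res. stood above CORT at 1 (3.25%) and below at 85 (26.2%). A start site, which requires a peak in some list, was present at 23 of the genes. CORT was above ctrl. at 17 of the 23 (28.8% of all start sites) and below at 0 (3.63%), and cal. res. was below CORT at 19 (51.6%) and above at 0 (1.11%). Against ctrl., cal. res. was lower at 8 of the 23 (21.3%) and higher at 2 (2.48%), Hsd17b7 and Nr1h3.

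The 14 start sites of synthesis enzymes gave most of these. CORT was above ctrl. at 11 and cal. res. was below CORT at 13 of the 14, against 28.8% and 51.6% of all start sites. An absent peak counts as 0, and neither cal. res. library had a peak at Mvk, Tm7sf2, Msmo1, Nsdhl and Ebp. A gene entered the 14 only where some list had a peak at its start, and Pmvk and Fdft1 had none. Nsdhl entered through CORT alone, and Mvk, Msmo1 and Ebp through CORT and ctrl. replicate 1. Such genes could hardly be called otherwise. The shares of all start sites rest on the same rule of entry. The cal. res. lists hold 22707 and 18747 regions and the CORT lists 29473 and 39136. The counts around the 28 genes were not repeated at equal list length, at which the excess of lower cal. res. was not seen around the 5 genes. At Idi1, isopentenyl diphosphate isomerase, the percentile was 67.0 and 6.67 for ctrl., 32.6 and 0 for cal. res., and 91.8 and 93.3 for CORT. At Lss, lanosterol synthase, it was 80.6 and 77.7, 41.9 and 32.1, and 85.2 and 78.9, with both cal. res. libraries below the other 4 as at the Insig1 start. Scap, the SREBP escort, had no start peak in CORT, and Mbtps2 and Mylip had no site in their windows.

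For uptake and storage, the 4 start sites measured were all higher in CORT than in ctrl. (28.8% of all start sites were) and all lower in cal. res. than in CORT (51.6%). Scarb1, the receptor that takes up HDL cholesterol, had 6 sites held by all 3 groups, the most of the 28 genes, and its start stood at 37.8 and 0 for ctrl., 3.90 and 0 for cal. res., and 54.2 and 69.6 for CORT. At Npc1, which moves cholesterol out of lysosomes, the start stood at 89.7 and 51.6, 68.1 and 76.4, and 92.8 and 95.8, and at Stard4, a sterol carrier, at 85.3 and 62.2, 53.8 and 45.4, and 90.5 and 95.1. Soat2, which esterifies cholesterol, stood at 50.5 and 0, 56.5 and 44.8, and 59.1 and 74.4. Limma called none of the shared sites of these genes, and the name styles are divided between cal. res. and CORT here as they are for the 46 sites.

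**Figure D5:**
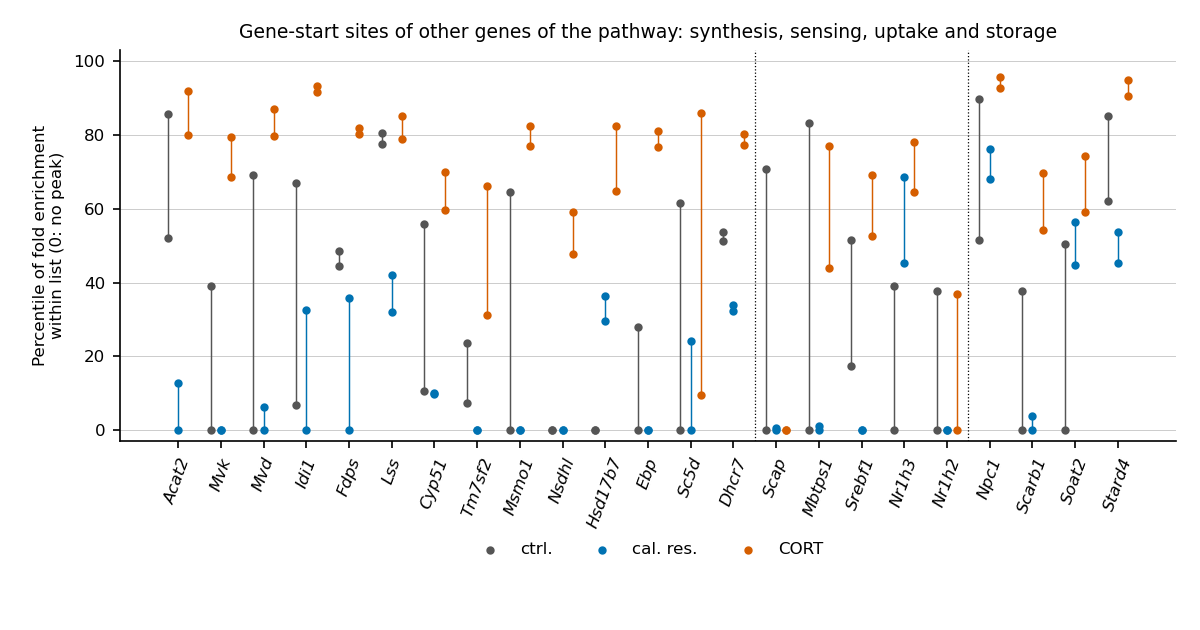
Percentile of GR fold enrichment within the list (vertical axis; 0, no peak) at the start sites of 23 other pathway genes, with 2 points per group joined by a line and dotted lines between synthesis, sensing, and uptake and storage genes. CORT points lie above both ctrl. points at 17 of the 23 genes, and cal. res. points lie below both CORT points at 19.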

How the data were processed

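GR ChIP-seq peaks of 6 mouse liver libraries (ctrl., cal. res., CORT, 2 each, grouped by their titles) and 1 FOXO1 list from 2 merged cal. res. libraries were analysed. As the methods state, BWA was used by the authors for alignment to mm10, duplicates and reads with several alignments were dropped, and the authors called peaks per GR library and on the merged FOXO1 sample with MACS2 and took out blacklisted regions with bedtools. Whether an input was used is not given in the sources used here. The largest q-value was between 0.0994 and 0.0998 in the deposited GR lists and 9.84e-06 in the FOXO1 list. The deposited columns hold fold enrichment (the ratio of fragments over the summit to the local background), -log10 p-values, -log10 q-values, a display score and the summit offset. The deposited score and offset entered no comparison beyond locating summits.

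Regions of the 6 GR lists sharing at least 1 bp were merged into sites with Python 3.11.15 and pandas 2.3.3 (bedtools 2.31.1 and pysam 0.24.0 served sequence and overlap steps). Genes were taken from GENCODE M21, and a start site was centred within 1 kb of a protein-coding gene start. That definition replaced one using any transcript start after results had been seen. Rows that share a region were reduced to the summit of highest fold. Summit fragments were rebuilt from fold and p-value, and the rebuilt p matched the deposited one within 0.001 (-log10) for at least 99.98% of the peaks tested in each list, those with -log10 p under 60. The read depth behind the lists was not analysed here, so the 13667 to 48060 peaks per list stand in for it. The study's methods call both libraries of a group biological replicates.

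Ranks of the 8097 sites in all 6 lists were fitted with limma 3.58.1 (R 4.3.3) over all groups, with Benjamini-Hochberg adjustment over all sites. The fit was tested on simulated data: with a small spread it recovered 99% of 100 sites at each change, with 28 unchanged sites among 226 calls, and with the libraries' own spread it recovered 0%. Site counts were compared by exact permutation over libraries, with every grouping enumerated in Python with NumPy 2.4.6. SciPy 1.17.1 gave the ranks and the Poisson and chi-square values. The members, the pathway list and the motifs were chosen with earlier results of these data known, so no pattern given here is independent support for them. One gene of the pathway list is not reported here and entered no count of that list. Sites held by both libraries of a group or overlapping FOXO1 were described singly, and the others by count and range. Alternatives were stricter q limits, lists of equal length, other windows, other scales and fits, and each library left out in turn.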

Additional observations from a re-analysis of the deposited data

Results flagged for a closer look

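The Srebf2 start site was picked out because cal. res. and CORT stood on opposite sides of ctrl. The mean percentile of cal. res. minus ctrl. was -38.2 and that of CORT minus ctrl. was 16.9, and every library of each group lay on its side of both ctrl. libraries. The opposition of the 2 differences was not tested as such, and both share the ctrl. libraries. The direct difference, cal. res. minus CORT, had an adjusted p of 0.209 in the limma rank fit. Such opposite order was found at 1.64% of all sites, 6.1% of sites in all 6 lists and 13.8% of start sites in all 6 lists. The summits held 11 to 31 fragments, and without CORT replicate 1 the rank fit put CORT minus ctrl. at -2.43.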

How the results depend on the processing

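No member site was called by limma in any of 13 alternative fits, in which the smallest adjusted p at a member site was 0.11. Of 234 alternative values of 18 site differences, 226 kept their direction. These 18 were picked because both libraries of one group stood apart from both of the other. The alternatives reuse the same libraries, so a kept direction is largely built in. Scoring log2 fold enrichment called 5 sites in CORT against ctrl. over all shared sites, none of them a member. The replicate numbers did not pair the libraries (correlations of deviations -0.0972, -0.132 and 0.12), and the fit with a replicate block called 0 sites in each comparison, as did the fit with crossed ctrl. numbers (added after the data were seen). With q of at most 1e-05, which left 27 sites, cal. res. was higher than ctrl. at 5 (6.42% of all sites) and lower at 1 (4.31%). It was higher than CORT at 4 (4.91%) and lower at 7 (27.7%). With 12458 regions kept per list, which left 20 sites, cal. res. was higher than ctrl. at 8 (15.1%) and lower at 5 (12.4%). CORT was higher than ctrl. at 3 (13.8%) and lower at 0 (10.3%). Cal. res. was higher than CORT at 6 (18.2%) and lower at 4 (16.8%). In this setting CORT minus ctrl. at the Insig2 site 2.97 kb downstream was -5.11. With windows of 25 kb (37 sites), cal. res. was higher than ctrl. at 2 (4.65%) and lower at 4 (6.86%). It was higher than CORT at 2 (3.25%) and lower at 12 (26.2%). With 100 kb (65 sites), CORT was higher than ctrl. at 15 (16.1%) and lower at 1 (1.82%). In these wider windows cal. res. was higher than CORT at 5 (3.25%) and lower at 23 (26.2%). With name style as a covariate, that Insig2 site gave 13.5 for CORT minus ctrl. and -2.70 for cal. res. minus CORT, and the Insig1 site 33.5 kb upstream gave 17.3 for the latter. Over sites in at least 4 lists the Insig2 site gave 5.07 for CORT minus ctrl. Leaving out each library in turn, where fewer libraries make separation easier by construction, cal. res. was higher than ctrl. at 4 to 12 sites and lower at 4 to 20, CORT higher than ctrl. at 10 to 28 and lower at 0 to 9, and cal. res. higher than CORT at 5 to 8 and lower at 14 to 28. At the other pathway genes these ranges were 10 to 44 and 29 to 144, 48 to 126 and 8 to 77, and 1 to 22 and 85 to 167. Sites per library differed by -7 to 10 for cal. res. minus ctrl. and by 1.5 to 18.5 for CORT minus ctrl., and E-box sites numbered 1 to 2. In the rank fit the Insig2 site 2.97 kb downstream ranged from -27.8 to 14.8 and the Srebf2 start from -2.43 to 22.6 for CORT minus ctrl., and the Insig2 site 4.69 kb downstream from -18.1 to 0.455 and the Insig1 site 33.5 kb upstream from -11.4 to 2.52 for cal. res. minus CORT. The cause of these changes was not tested.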
